A study of Mus musculus with 11 samples.

Results

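The 2 populations compared were CD4 T cells sorted from the kidney as CD127-PD-1+ or as CD127+PD-1-. The comparison used 5 of the 11 libraries of the series, namely the 2 libraries labelled CD4+CD127-PD-1+ and the 3 labelled CD4+CD127+PD-1-, chosen by these labels alone. The mice of both groups carried the wild-type genotype (WT). They had been immunised with recombinant mouse MPO (myeloperoxidase, a neutrophil granule enzyme and an autoantigen in vasculitis) and were then given globulin of sheep against mouse basement membrane (BM) at a low dose, which brings on glomerulonephritis. Both groups were sorted 21 days after the globulin, so the disease is common to both and no healthy kidney entered the comparison. Each library came from cells pooled from 3 mice, and the spread between libraries is therefore between pools and not between animals. Per the labels, a further CD4+CD127-PD-1+ sample did not pass quality control, which left n = 2 in that group. The remaining 6 libraries were CD8 T cells of the same 2 states and entered only to share the estimate of the spread and to test where the CD4 change differed from the CD8 change.

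CD127 is the alpha chain of the receptor for interleukin 7 (IL-7), a cytokine that keeps naive and memory T cells alive, and it is encoded by Il7r. PD-1, encoded by Pdcd1, is an inhibitory receptor that T cells place on their surface after their antigen receptor has been engaged and keep while the antigen persists. Naive and memory CD4 T cells hold high CD127 and the transcription factors TCF-1 (Tcf7) and LEF-1 (Lef1), and they move between blood and lymph nodes with the help of CCR7 and S1PR1. CD4 T cells that see antigen for a long time lower these genes, and some of them gain interleukin 21 (Il21), the cytokine of follicular helper and peripheral helper T cells that acts on B cells.

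The CD4 libraries held 10572505 to 14671212 counted reads and between 20514 and 21849 detected genes. Mitochondrial ribosomal RNA took 28.1 to 30.8% of the reads in all 5. In a principal component analysis of these libraries, the sorted states lay apart along component 1 (59.5% of the variance). Component 2 (20.7%) set the 2 CD127-PD-1+ libraries apart from each other and CD127+PD-1- replicate 3 apart from the other 2 of its group. On component 2, CD127-PD-1+ replicate 2 and CD127+PD-1- replicate 3 lay on the same side (-48.1 and -33.1). Both carry the number 3 in their sample descriptions. The levels given are CPM (counts-per-million) on library sizes scaled by edgeR's TMM method, which are not corrected for gene length, so levels were compared between groups and not between genes.

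The sort markers followed the labels. Il7r (chr15:9505788-9530176, minus strand, GRCm38) was at 15.5 and 27.2 CPM in the 2 CD127-PD-1+ libraries and at 345, 355 and 455 CPM in the 3 CD127+PD-1- libraries. Pdcd1 (chr1:94038305-94052553, minus strand) was at 18.2 and 20.3 CPM in CD127-PD-1+ cells and at 2.57, 0.845 and 2.05 CPM in CD127+PD-1- cells. The groups were far apart for both genes, which checks the labels and is no finding, since these proteins defined the gates. The log2 fold change (CD127-PD-1+ over CD127+PD-1-) was -4.17 ± 0.26 (SE) for Il7r and 3.41 ± 0.41 for Pdcd1.

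Cd4 was at 588 and 680 CPM in CD127-PD-1+ cells against 536, 503 and 622 CPM, and its groups overlapped (log2 fold change 0.20 ± 0.45, adjusted p = 0.839). Of 18 T cell identity genes, none was called higher and 1 lower, and the lower call was not made without CD127+PD-1- replicate 3. Their median log2 fold change was 0.11. It was 0.32 without CD127-PD-1+ replicate 1 and -0.22 without CD127-PD-1+ replicate 2. The summed CPM of these 18 genes was 3847 and 4902 against 3998, 4105 and 4772, and the groups overlapped. Cd8a stayed between 0 and 1.82 CPM in all 5 libraries. Cd8b1 was at 5.98 and 1.75 CPM in CD127-PD-1+ cells and at 60.7, 20.7 and 30.1 CPM in CD127+PD-1- cells, and it fell with a log2 fold change of -3.27 ± 0.51 (adjusted p = 0.00249). The whole list of 14 CD8 lineage genes gave 1 higher and 2 lower calls, with a median log2 fold change of -0.60. Its summed CPM was higher, at 464 and 503 in CD127-PD-1+ cells against 385, 344 and 420. The rise of Nkg7, whose levels are given with the type 1 helper genes below, was about as large as that of the sum. The member called higher was Nkg7, which type 1 helper cells express too, and 1 of the 2 lower calls was lost without CD127-PD-1+ replicate 2.

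Transcripts of other cell types differed strongly between the groups, and the 2 CD127-PD-1+ libraries also differed from each other in them. The summed CPM of 40 macrophage and monocyte genes was 9692 and 4438 in CD127-PD-1+ cells against 2160, 1421 and 1128 in CD127+PD-1- cells. Replicate 1 of CD127-PD-1+ was thus the highest, and replicate 2 was still above every CD127+PD-1- library. In the test described next, which called 11.7% of all genes (6.81% higher and 4.87% lower), 32 of these 40 genes were called higher and 1 lower, and 23 of the 32 were also called in each of the 5 fits that left out 1 CD4 library. C1qa, a chain of complement C1q made by macrophages, was at 94.3 and 50.4 CPM against 1.08, 0.691 and 0.372 CPM. Csf1r, the growth factor receptor of macrophages, was at 302 and 142 CPM against 7.29, 7.07 and 2.23 CPM. None of the 40 genes was at 0 in all libraries of either group.

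Genes of plasmacytoid dendritic cells, which make type I interferon, went the other way. Their summed CPM over 20 genes was 1055 and 639 in CD127-PD-1+ cells against 2711, 1398 and 1673, with 13 genes lower and 0 higher. Siglech, a surface lectin of these cells, was at 32.5 and 5.39 CPM against 411, 188 and 224 CPM. The 13 became 7 without CD127-PD-1+ replicate 2. Neutrophil and mast cell genes had higher sums (267 and 146 against 41.7, 33.3 and 17.4 CPM over 13 genes), with 2 called higher and 0 lower. Endothelium, podocyte and stroma genes had lower sums (64.3 and 65.1 against 156, 143 and 122 CPM over 7 genes), with 2 called lower, neither of them without CD127-PD-1+ replicate 2. Sums of 14 kidney tubule genes overlapped between the groups (97.8 and 151 against 89.2 to 153 CPM), with 0 members called in either direction. Sums of 16 B and plasma cell genes overlapped as well (496 and 217 against 346 to 549 CPM). In bulk RNA, more cells of a type and more RNA per cell cannot be told apart. The part of these other cells in the gene changes below was not tested, and their values are set beside the groups they touch. The 2 CD127-PD-1+ libraries also carry different numbers in their sample descriptions (2 for replicate 1 and 3 for replicate 2). The cause of any order between these 2 libraries was not tested.

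**Figure D1:**
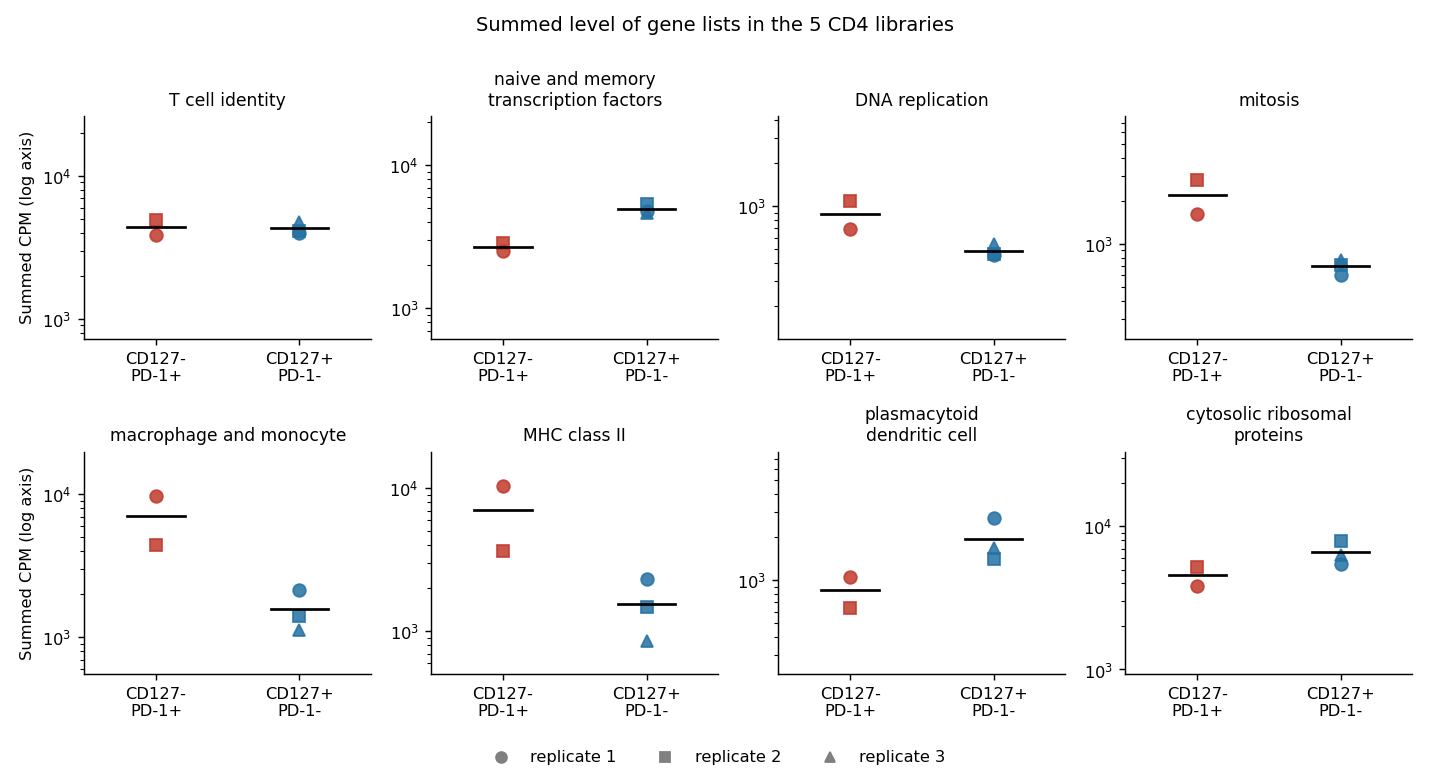
Summed CPM of 8 gene lists (log axis) in the 2 CD127-PD-1+ and 3 CD127+PD-1- CD4 libraries, with 1 point per library, its shape giving the replicate and the bar the group mean. T cell identity genes overlap between the groups, macrophage genes lie higher (9692 and 4438 against at most 2160), mitosis genes are higher in CD127-PD-1+ replicate 2 than in replicate 1, and plasmacytoid dendritic cell genes lie lower.

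Across the genome, 16365 genes had enough reads to be tested. In edgeR's quasi-likelihood test with Benjamini-Hochberg adjustment over all of them, 1912 genes (11.7%) were called at an adjusted p under 0.05. CD127-PD-1+ cells had higher levels of 1115 of them (6.81% of those tested) and lower levels of 797 (4.87%). The change exceeded 2-fold for 848 of the higher and 430 of the lower genes, and the median log2 fold change over all tested genes was 0.02. In 3478 genes (21.3%) both CD127-PD-1+ libraries lay above all 3 others, and in 3182 (19.4%) both lay below. These shares are the background for the counts of gene groups that follow. With so few libraries the counts depended on single pools: they were 554 higher and 422 lower without CD127-PD-1+ replicate 1, 675 and 488 without CD127+PD-1- replicate 1, and 588 and 500 without CD127+PD-1- replicate 2. The lower count was 374 without CD127-PD-1+ replicate 2, where the lone remaining library of that group was assumed to vary like the other groups.

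**Figure D2:**
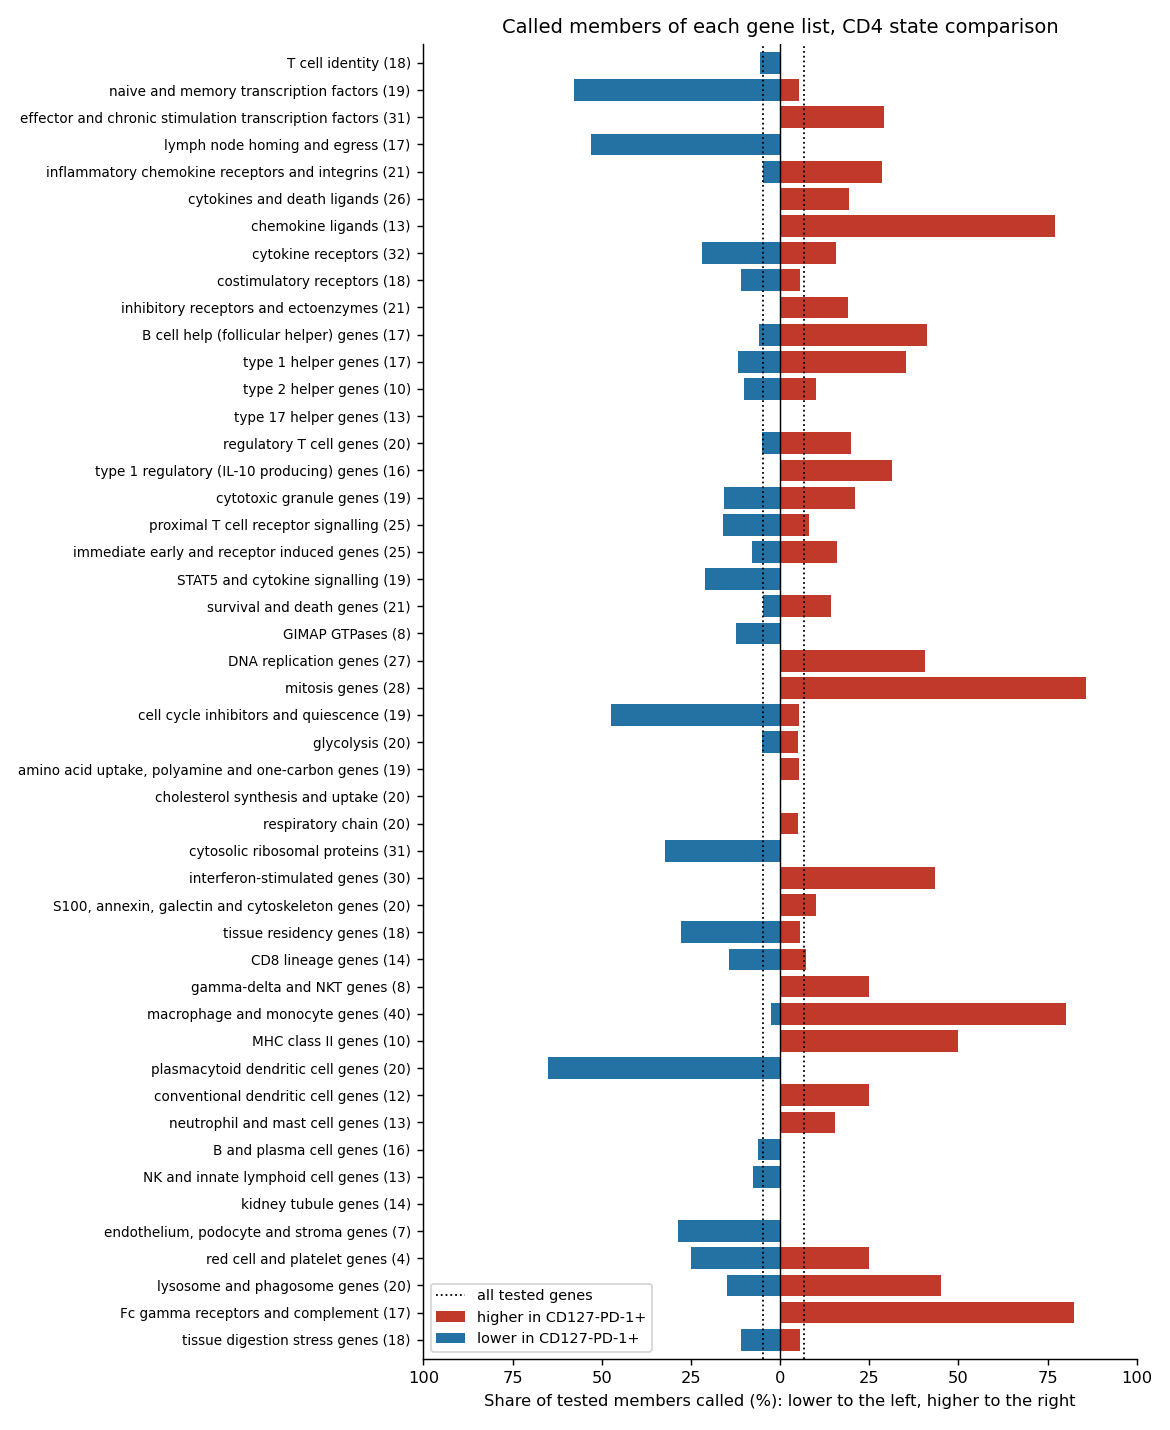
Share of the tested members of 48 gene lists (number tested in brackets) called lower (blue, to the left) or higher (red, to the right) in CD127-PD-1+ CD4 cells, in percent, with dotted lines at the shares over all tested genes (4.87% lower, 6.81% higher). Mitosis genes (24 of 28), macrophage genes (32 of 40) and chemokine ligands (10 of 13) have the longest bars to the right among the lists of more than 10 genes other than Fc gamma receptor and complement genes (14 of 17). Plasmacytoid dendritic cell genes (13 of 20) have the longest bar to the left, followed by naive transcription factors (11 of 19) and homing genes (9 of 17).

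Most transcription factors of naive and memory T cells fell. Of 19 such genes, 11 were called lower and 1 higher, with a median log2 fold change of -1.07, and 8 of the 11 were called lower in each of the 5 fits with 1 library left out (Tcf7, Lef1, Satb1, Klf2, Foxo1, Id3, Zeb1 and Klf7). Tcf7 (chr11:52252371-52283014, minus strand), whose product TCF-1 maintains naive and memory T cells, was at 91.2 and 106 CPM in CD127-PD-1+ cells and at 349, 460 and 329 CPM in CD127+PD-1- cells. Every CD127-PD-1+ value lay below every CD127+PD-1- value. The log2 fold change was -1.95 ± 0.16 (adjusted p = 0.000122), a 3.85-fold lower level.

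Lef1, the partner of TCF-1, was at 55.5 and 51.1 CPM against 294, 406 and 199 CPM (log2 fold change -2.49 ± 0.30, adjusted p = 0.000572). Satb1, a chromatin organiser of thymocytes and naive T cells, was at 203 and 239 CPM against 1130, 1250 and 1133 CPM (-2.41 ± 0.22, adjusted p = 0.000122). The groups of both genes were well apart. Zeb1, a repressor of the Il2 gene, fell with a log2 fold change of -1.07 ± 0.12 (149 ± 6.82 against 311 ± 15.6 CPM, mean ± SD, n = 2 and 3). Klf2, which drives S1pr1, fell from 133 ± 30.2 to 52.9 ± 12.1 CPM, and Foxo1, the factor upstream of Klf2 and Il7r, from 256 ± 7.97 to 147 ± 19.2 CPM. Bach2, a repressor of effector genes, was called lower as well (log2 fold change -1.71 ± 0.38, adjusted p = 0.0148), but not without CD127-PD-1+ replicate 2 (0.0975) or CD127+PD-1- replicate 2 (0.0528). The single member called higher was Pou2f2, which encodes the octamer factor Oct2 of B cells and activated T cells, at 101 and 72.5 CPM against 28.5, 24.3 and 30.7 CPM.

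Many genes that take T cells to lymph nodes and let them leave tissue fell too. Of 17 genes, 9 were called lower and 0 higher, and 6 of the 9 kept the call in each fit with 1 library left out (Ccr7, S1pr1, Klf2, Actn1 and Dgka among them). Ccr7, the receptor for lymph node chemokines, was at 13.2 and 12.1 CPM against 68.6, 98.1 and 46.5 CPM (-2.49 ± 0.34, adjusted p = 0.00112). S1pr1, the receptor for the lipid that draws lymphocytes out of tissue, was at 42.2 and 65.7 CPM against 195, 226 and 189 CPM (-1.91 ± 0.21, adjusted p = 0.000352). In both genes the groups did not overlap. Ccr9, which is also a marker of plasmacytoid dendritic cells, fell with a log2 fold change of -2.80 ± 0.54 (adjusted p = 0.00774, and 0.058 without CD127-PD-1+ replicate 2) beside the lower sum of the genes of those cells. Cd69, a marker of tissue retention and recent activation, was at 106 and 189 CPM against 214, 164 and 314 CPM and was not called (adjusted p = 0.161).

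**Figure D3:**
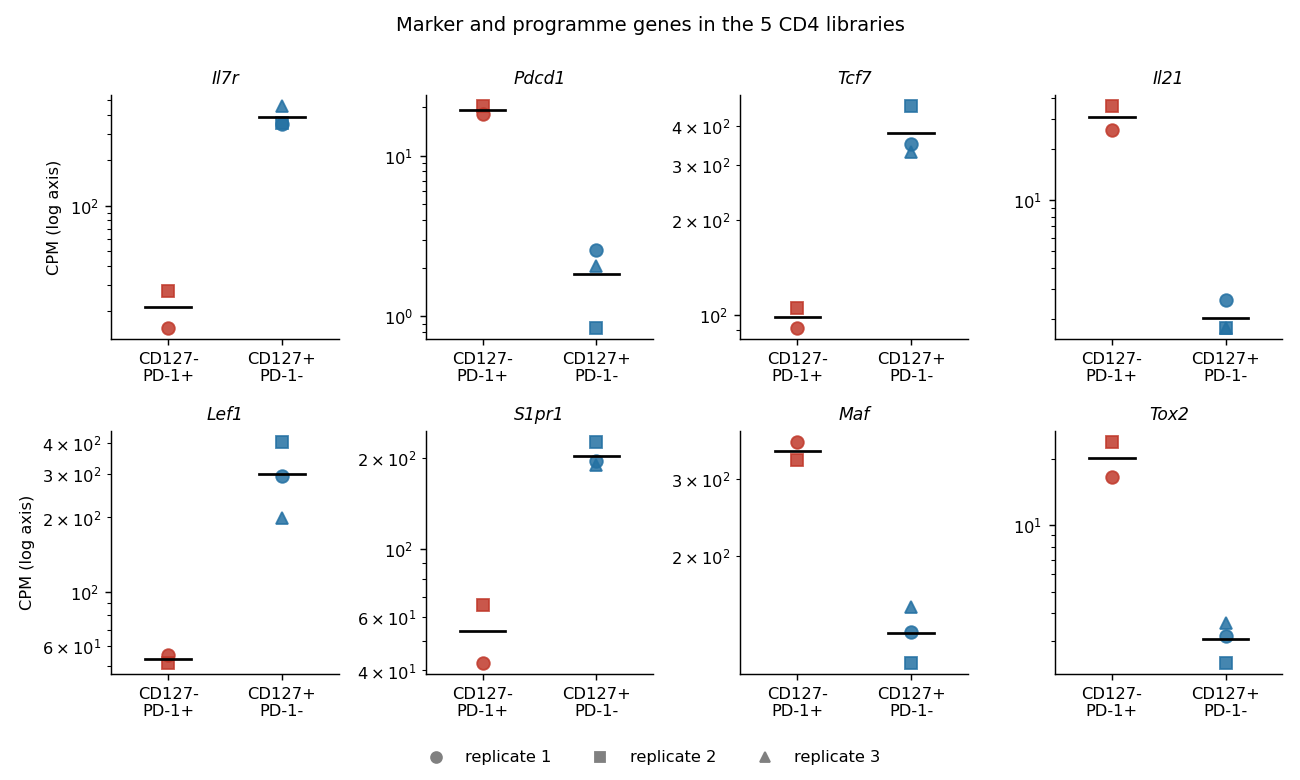
CPM (log axis) of Il7r, Pdcd1, Tcf7, Il21, Lef1, S1pr1, Maf and Tox2 in each CD4 library, with 1 point per library, its shape giving the replicate and the bar the group mean. In each panel the 2 CD127-PD-1+ libraries lie wholly on one side of the 3 CD127+PD-1- libraries, below them for Il7r, Tcf7, Lef1 and S1pr1 and above them for Pdcd1, Il21, Maf and Tox2.

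Il21 was the gene of B cell help with the largest increase. Il21 (chr3:37222759-37232636, minus strand) was at 25.9 and 35.6 CPM in CD127-PD-1+ cells and at 2.57, 1.77 and 1.77 CPM in CD127+PD-1- cells. The lowest CD127-PD-1+ value was far above the highest CD127+PD-1- value. The log2 fold change was 3.91 ± 0.40 (adjusted p = 0.000268), a 15-fold higher level.

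Of 17 tested follicular helper genes, 7 were called higher and 1 lower. One of the 7 was Pdcd1, which the gate fixed and which is no finding. Of the other 6, 5 kept the call in each fit with 1 library left out (Il21, Maf, Tox2, Asb2 and Rgs16). Tox2, a nuclear factor of follicular helper and chronically stimulated T cells, was at 16.5 and 23.8 CPM against 3.15, 2.38 and 3.63 CPM (2.73 ± 0.52, adjusted p = 0.00738). Asb2, a ubiquitin ligase subunit, was at 33.1 and 32.6 CPM against 9.37, 9.29 and 11 CPM (1.73 ± 0.27, adjusted p = 0.00242). Rgs16, a brake on chemokine receptor signalling, was at 114 and 71.4 CPM against 7.38, 9.68 and 10.4 CPM (3.34 ± 0.53, adjusted p = 0.00273). The groups of these 3 genes did not overlap.

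Other genes that define follicular helper cells did not pass the test. Cxcr5, the receptor that brings T cells into the B cell follicle, was at 6.59 and 4.35 CPM against 2.82, 3.38 and 2.14 CPM (log2 fold change 0.97 ± 0.35, adjusted p = 0.106). Bcl6, the lineage factor of these cells, had 0.41 ± 0.23 (adjusted p = 0.299) and Icos, a costimulator, 0.01 ± 0.29 (adjusted p = 0.994). Slamf6, a receptor of long-lived T cells, fell with -0.88 ± 0.23 (adjusted p = 0.0278), and this call ended without CD127-PD-1+ replicate 1 (0.102), CD127-PD-1+ replicate 2 (0.133) or CD127+PD-1- replicate 2 (0.0865).

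Among 31 transcription factors of effector and chronically stimulated T cells, 9 were called higher and 0 lower, with a median log2 fold change of 0.47. Of the 9, 6 were called in each fit with 1 library left out (Tox2, Nfatc1, Maf, Rbpj, Egr2 and Ikzf3). Maf (chr8:115682942-115707794, minus strand), which drives Il21 and Il10 in T cells and is also active in macrophages, was at 366 and 332 CPM against 134, 113 and 152 CPM (1.39 ± 0.17, adjusted p = 0.000621). Nfatc1, a calcium-driven factor that acts on Pdcd1, was at 314 and 325 CPM against 155, 140 and 165 CPM (1.06 ± 0.13, adjusted p = 0.000641). Egr2, induced by the antigen receptor, was at 58.2 and 50.2 CPM against 26.9, 25.9 and 30.3 CPM (0.97 ± 0.15, adjusted p = 0.00254). The groups were apart in all 3, with little spread within them.

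Ikzf3, encoding the zinc finger protein Aiolos, rose with 0.96 ± 0.17 (adjusted p = 0.00468), and Rbpj, the nuclear partner of Notch, with 1.14 ± 0.21 (adjusted p = 0.00594). Tox, the regulator of exhausted T cells, was at 179 and 109 CPM against 67.2, 72.7 and 50.7 CPM, and Prdm1, encoding Blimp-1, at 101 and 121 CPM against 61.5, 51 and 74.3 CPM. For both the groups did not overlap, but the adjusted p was 0.067 for Tox and 0.0579 for Prdm1. The lineage factors of regulatory and type 2 cells were not called: Foxp3 of regulatory T cells had a log2 fold change of -0.16 ± 0.29 (adjusted p = 0.792) and Gata3 of type 2 cells -0.0047 ± 0.14 (adjusted p = 0.989). Tbx21, encoding T-bet of type 1 cells, rose with 0.77 ± 0.21 (adjusted p = 0.0356), a call that ended in every fit with 1 library left out (adjusted p of 0.134 and 0.103 when CD127-PD-1+ replicates 1 and 2 were dropped, and 0.0935, 0.0843 and 0.0828 when the 3 CD127+PD-1- replicates were dropped in order).

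**Figure D4:**
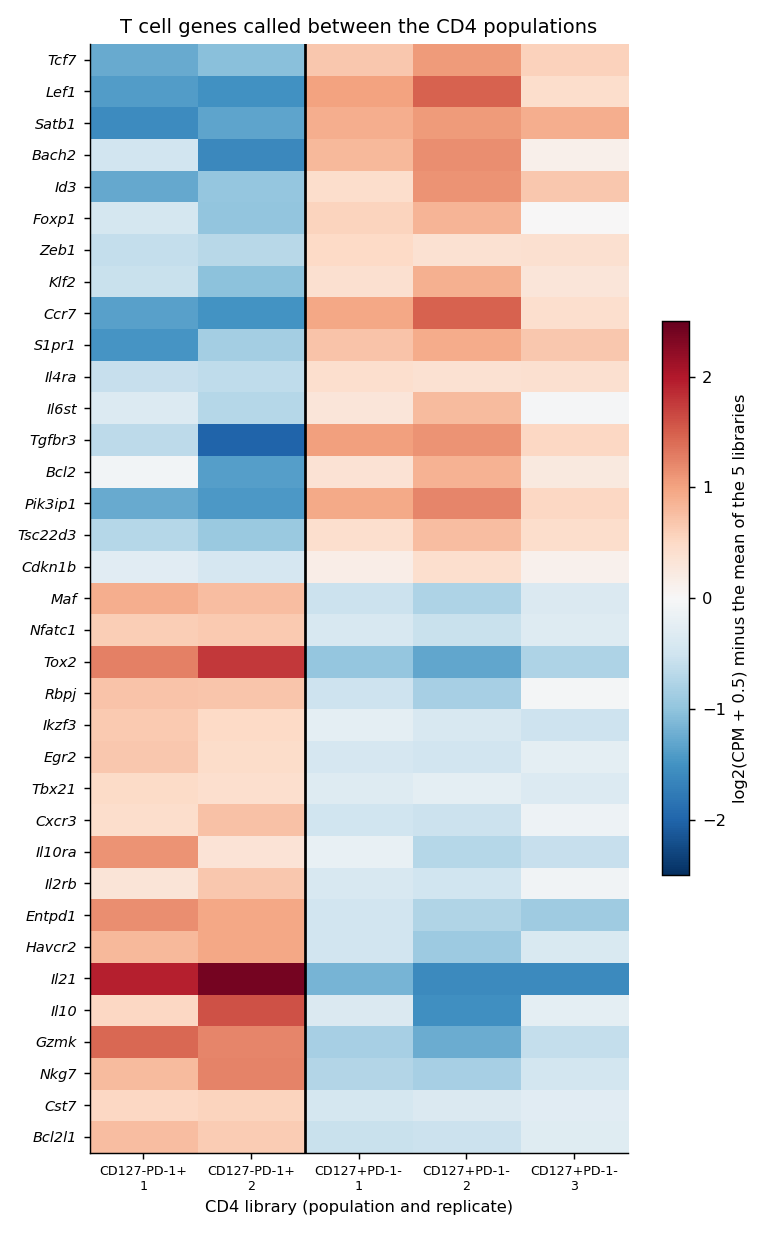
Level of 35 T cell genes in the 5 CD4 libraries, as log2(CPM + 0.5) minus the gene's mean over the 5 libraries, on a colour scale from blue (low) through white to red (high). Genes of naive and memory T cells in the upper block (Tcf7 to Cdkn1b) are red or near white in the 3 CD127+PD-1- libraries and blue or near white in the 2 CD127-PD-1+ libraries, and genes from Maf to Bcl2l1 show the reverse.

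Type 1 helper genes gave 6 higher and 2 lower calls among 17. Nkg7, a granule membrane protein of cytotoxic and type 1 cells, was at 131 and 178 CPM against 45, 41.9 and 54.4 CPM (1.72 ± 0.26, adjusted p = 0.00222). The chemokine receptor Cxcr3 was at 79.5 and 97.2 CPM against 41.2, 40.5 and 53.7 CPM (0.97 ± 0.23, adjusted p = 0.0183), and was not called without CD127-PD-1+ replicate 2 (0.113), CD127+PD-1- replicate 1 (0.0645) or CD127+PD-1- replicate 2 (0.0705). Ifng, the type 1 cytokine, was at 253 and 233 CPM against 123, 127.5 and 143 CPM, with no overlap between the groups and an adjusted p of 0.0738. Txk, a Tec family kinase, fell from 374, 398 and 328 CPM to 126.8 and 126 CPM (-1.54 ± 0.13, adjusted p = 0.000122). Between 2 and 4 of the 17 genes were called higher when 1 library was left out: 3 without CD127-PD-1+ replicate 1, 3 without CD127-PD-1+ replicate 2, 3 without CD127+PD-1- replicate 1, 2 without CD127+PD-1- replicate 2 and 4 without CD127+PD-1- replicate 3.

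Cytokine genes other than Il21 changed less. Of 26 cytokine and death ligand genes, 5 were called higher and 0 lower, and Il21 alone kept its call in each fit with 1 library left out (2 calls without CD127-PD-1+ replicate 1, and 3 without CD127-PD-1+ replicate 2 or CD127+PD-1- replicate 2). Il10, the inhibitory cytokine of regulatory and type 1 regulatory T cells and of macrophages, was at 27.4 and 58.2 CPM against 14.7, 6.22 and 15.9 CPM (1.81 ± 0.42, adjusted p = 0.0187). Its higher value lay in CD127-PD-1+ replicate 2, and the call ended without that library and without CD127+PD-1- replicate 2 (0.0562). Which cells the Il10 transcripts came from was not tested. Ebi3, a subunit of interleukins 27 and 35, rose with 2.35 ± 0.49 (adjusted p = 0.0108, and 0.0662 without CD127-PD-1+ replicate 1), and Tnfsf10, encoding the death ligand TRAIL, with 1.11 ± 0.24 (adjusted p = 0.0133, and 0.103 without CD127-PD-1+ replicate 1). Il2 (0.34 ± 0.37, adjusted p = 0.629) and Cd40lg (-0.22 ± 0.22, adjusted p = 0.568), which encodes the B cell costimulator CD40 ligand, were not called.

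Inhibitory receptors and ectoenzymes gave 4 higher calls of 21 and 0 lower ones, and the 4 include Pdcd1, which the gate fixed. Entpd1, encoding the ectoenzyme CD39 that degrades ATP, was at 79.3 and 69.2 CPM against 25, 20.7 and 18.9 CPM (1.79 ± 0.23, adjusted p = 0.00085). Havcr2, encoding TIM-3, was at 64.2 and 71.6 CPM against 26.3, 19.1 and 28 CPM (1.47 ± 0.28, adjusted p = 0.00754). Both genes are also expressed by macrophages and both groups of values were apart. Ctla4 (0.79 ± 0.30, adjusted p = 0.123), Tigit (0.74 ± 0.47, adjusted p = 0.356) and Lag3 (0.09 ± 0.42, adjusted p = 0.927), which encode further inhibitory receptors, did not pass the test. Gzmk, a granule protease, rose from 1.99, 1.38 and 2.42 to 11.5 and 9.86 CPM (2.48 ± 0.54, adjusted p = 0.0137), and was not called without CD127-PD-1+ replicate 1 (0.0643) or CD127+PD-1- replicate 2 (0.061), or with limma-voom (0.144).

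Receptors for cytokines moved in both directions, with 5 higher and 7 lower calls among 32 genes. The 7 include Il7r, which the gate fixed and which is no finding. The 5 higher calls were 2 without CD127-PD-1+ replicate 1, CD127-PD-1+ replicate 2 or CD127+PD-1- replicate 2. Beside Il7r itself, Il4ra, the shared chain of the receptors for interleukins 4 and 13, was at 49 and 46.5 CPM against 97.6, 95.7 and 96.6 CPM (-1.02 ± 0.13, adjusted p = 0.000657). Il17ra, a chain of the interleukin 17 receptor, fell with -0.73 ± 0.12 (adjusted p = 0.00377). Il10ra, the receptor for Il10 and also present on macrophages, was at 74.1 and 43.2 CPM against 29.7, 20.5 and 22.4 CPM (1.28 ± 0.23, adjusted p = 0.00496). These 4 genes were called in each fit with 1 library left out. Il2rb, the beta chain shared by the receptors for interleukins 2 and 15, rose with 0.83 ± 0.18 (334 ± 55.1 against 188 ± 28.2 CPM, adjusted p = 0.0123), and was not called without CD127-PD-1+ replicate 2 (0.098) or CD127+PD-1- replicate 2 (0.05).

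The signalling genes downstream of CD127 showed 4 lower calls of 19 and 0 higher ones. They were Jak1, the kinase bound to CD127 (-0.45 ± 0.09, adjusted p = 0.0105), the transcription factor Stat5b (-0.69 ± 0.14, adjusted p = 0.00889) and the STAT5-responsive kinases Pim1 (-0.82 ± 0.21, adjusted p = 0.03) and Pim2 (-0.88 ± 0.24, adjusted p = 0.0351). None of the 4 held in all fits with 1 library left out: Jak1 (0.0937), Stat5b (0.0806) and Pim1 (0.098) were lost without CD127-PD-1+ replicate 1, and Pim1 (0.154) and Pim2 (0.216) without CD127-PD-1+ replicate 2. Pim1 was lost too without CD127+PD-1- replicate 1 (0.054) and replicate 3 (0.0897), and Pim2 without CD127+PD-1- replicates 1 (0.0891), 2 (0.0985) and 3 (0.0534) and in the CD4 libraries alone (0.0902). Bcl2, a survival gene induced by IL-7, was at 113 and 45.5 CPM against 154, 218 and 141 CPM. Its call (-1.11 ± 0.33, adjusted p = 0.0478) ended without CD127-PD-1+ replicate 2 (0.229), CD127+PD-1- replicate 1 (0.0822), replicate 2 (0.152) or replicate 3 (0.0599). It ended too with the stricter filter (0.0521), with the title number as a replicate block (0.0565) and in the CD4 libraries alone (0.107). Bcl2l1, encoding the survival protein BCL-XL, rose from 8.79, 8.91 and 10.5 to 22.9 and 20.6 CPM (1.21 ± 0.21, adjusted p = 0.0047), and kept its call in each of these fits.

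Genes close to the antigen receptor changed in both directions, with 2 higher and 4 lower calls among 25, and neither higher call was made without CD127-PD-1+ replicate 1, CD127+PD-1- replicate 2 or CD127+PD-1- replicate 3. Dgka, a diacylglycerol kinase that dampens receptor signals, was at 170 and 178 CPM against 414, 524 and 388 CPM (-1.34 ± 0.17, adjusted p = 0.000822). Prkcq, the protein kinase C of the immune synapse, fell with -0.75 ± 0.12 (adjusted p = 0.00286). Of the immediate early genes, Jun was at 442 and 370 CPM against 748, 749 and 721 CPM (-0.86 ± 0.13, adjusted p = 0.00204) and Fosl2 fell with -0.77 ± 0.12 (adjusted p = 0.00222), while Nr4a1, an early target of the receptor, had -0.38 ± 0.17 (adjusted p = 0.183). Jun is also among 18 genes that respond to tissue digestion, of which 1 was called higher and 2 lower (1 lower without CD127-PD-1+ replicate 2).

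Cell division genes formed the largest block of higher genes among the T cell lists. Of 28 mitosis genes, 24 were called higher and 0 lower, and all 28 had a positive log2 fold change (median 1.95). Their summed CPM was 1606 and 2775 in CD127-PD-1+ cells against 604, 709 and 770.5. Replicate 2 of CD127-PD-1+ was the higher of the 2 in all 28 genes. It differed from replicate 1 both in its macrophage sum and in its description number, and the cause of this order was not tested. The count was 21 without CD127-PD-1+ replicate 1 but 2 without CD127-PD-1+ replicate 2, and it was 9, 14 and 16 without CD127+PD-1- replicates 1, 2 and 3.

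Ccnb2, encoding cyclin B2 that starts mitosis with CDK1, was at 15.3 and 30 CPM against 3.23, 5.3 and 4.19 CPM (2.41 ± 0.39, adjusted p = 0.00302). Cenpe, a kinetochore motor, was at 65.6 and 110 CPM against 17.5, 22.9 and 17.9 CPM (2.18 ± 0.39, adjusted p = 0.00547). These were the 2 mitosis genes whose call held whichever library was left out. Ttk, the kinase of the spindle checkpoint, was at 9.35 and 19.2 CPM against 1.66, 2.38 and 3.44 CPM (2.52 ± 0.50, adjusted p = 0.00829, and 0.065 without CD127-PD-1+ replicate 2). Mki67, which encodes the proliferation marker Ki-67, was at 639 and 1179 CPM against 194, 239 and 284 CPM (1.93 ± 0.44, adjusted p = 0.0158). It was not called without CD127-PD-1+ replicate 2 (0.12) or CD127+PD-1- replicate 1 (0.0603) or 2 (0.0578). Kif23, a kinesin of the dividing cell's midbody, rose with 1.63 ± 0.33 (adjusted p = 0.00949, and 0.0896 without CD127-PD-1+ replicate 2).

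Promoters of mitosis genes often carry a CHR element (TTTGAA) downstream of CCAAT boxes, where the DREAM complex and the factors B-MYB, FOXM1 and NF-Y act. Since these genes moved together, the RefSeq promoters (GRCm38.p6, from 250 bases before to 50 after the transcription start) of 3 of them are shown 5′ to 3′ on the gene's strand, with TTTGAA and CCAAT on either strand in capitals:
Ccnb2 promoter, chr9:70421505-70421804, minus strand: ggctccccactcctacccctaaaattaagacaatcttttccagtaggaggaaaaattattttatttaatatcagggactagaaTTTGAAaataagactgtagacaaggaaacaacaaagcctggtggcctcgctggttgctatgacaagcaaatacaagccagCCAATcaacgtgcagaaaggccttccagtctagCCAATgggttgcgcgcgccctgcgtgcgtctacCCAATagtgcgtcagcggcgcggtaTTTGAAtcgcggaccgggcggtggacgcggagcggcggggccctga
Ttk promoter, chr9:83834439-83834738, plus strand: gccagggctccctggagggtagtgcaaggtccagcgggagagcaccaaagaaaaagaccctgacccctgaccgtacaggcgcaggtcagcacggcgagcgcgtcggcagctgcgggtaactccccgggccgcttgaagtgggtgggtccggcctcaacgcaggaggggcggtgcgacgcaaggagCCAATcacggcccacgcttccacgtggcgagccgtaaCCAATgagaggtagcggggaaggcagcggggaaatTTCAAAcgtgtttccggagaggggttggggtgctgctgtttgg
Kif23 promoter, chr9:61946750-61947049, minus strand: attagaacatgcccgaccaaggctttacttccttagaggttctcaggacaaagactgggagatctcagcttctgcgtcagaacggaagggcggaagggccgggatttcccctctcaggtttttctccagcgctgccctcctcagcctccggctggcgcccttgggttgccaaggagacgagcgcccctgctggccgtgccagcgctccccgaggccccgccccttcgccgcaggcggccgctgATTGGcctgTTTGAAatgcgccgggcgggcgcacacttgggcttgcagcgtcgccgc
All 3 hold TTTGAA or its reverse complement close to the start, with CCAAT or its reverse complement upstream of it. RefSeq promoters were found for 23 of the 28 mitosis genes. TTTGAA was present on either strand in 17 of them (73.9%) against 18.1% of all 27018 promoters of this length, CCAAT in 19 (82.6%) against 37.9%, and both in 16 (69.6%) against 7.12%. The 2 motifs do not overlap each other in letters, and a match is a description of the sequence, not evidence of binding in these cells.

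Some DNA replication genes rose as well. Of 27 genes, 11 were called higher and 0 lower, with a median log2 fold change of 1.14 and all 27 values positive. Tyms, the thymidylate synthase, was at 29.6 and 50.6 CPM against 10, 12.3 and 14.1 CPM (1.73 ± 0.36, adjusted p = 0.0102), and Mcm10, a replication initiation factor, at 7.46 and 13.5 CPM against 1.57, 2.23 and 2.05 CPM (2.42 ± 0.48, adjusted p = 0.00829). Both calls ended without CD127-PD-1+ replicate 2 (0.0854 for Tyms and 0.0602 for Mcm10). In the fit without that library none of the 27 was called, and the count was 4, 5 and 10 without CD127+PD-1- replicates 1, 2 and 3 and 14 without CD127-PD-1+ replicate 1.

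Many genes that hold T cells out of the cell cycle fell: of 19 quiescence genes and inhibitors of cyclin-dependent kinases, 9 were called lower and 1 higher, with a median of -0.49. Pik3ip1, an inhibitor of PI3 kinase, was at 8.2 and 7.2 CPM against 39.4, 47.6 and 29.1 CPM (-2.33 ± 0.24, adjusted p = 0.0003). Fam65b, an inhibitor of the GTPase RhoA, was at 118 and 128 CPM against 334, 373 and 320 CPM (-1.48 ± 0.13, adjusted p = 0.000122). Tsc22d3, encoding the glucocorticoid-induced protein GILZ, was at 29.9 and 25.4 CPM against 65.7, 84.5 and 66.8 CPM (-1.39 ± 0.18, adjusted p = 0.000822). These 3 and Klf2 kept their calls in each fit with 1 library left out. The member called higher was Cdkn2c, an inhibitor of CDK4 and CDK6, at 16.4 and 14.7 CPM against 6.3, 6.53 and 7.63 CPM (1.19 ± 0.22, adjusted p = 0.00625). The number called lower was 4 without CD127-PD-1+ replicate 1, 5 without CD127-PD-1+ replicate 2 and 6 without each of the CD127+PD-1- libraries.

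Cytosolic ribosomal protein genes were lower in CD127-PD-1+ cells, with 10 called lower of 31, 0 higher, and all 31 log2 fold changes negative (median -0.56). Rpl5 was at 163 and 207 CPM against 297, 389 and 288 CPM (-0.81 ± 0.15, adjusted p = 0.00737, and 0.0671 without CD127-PD-1+ replicate 1). All 31 were lower in CD127-PD-1+ replicate 1, the library with more macrophage transcripts, than in replicate 2. Without CD127-PD-1+ replicate 1 none was called, without CD127+PD-1- replicate 2 there were 2 calls, and without CD127+PD-1- replicate 3 there were 4. Ribosomal protein genes have many processed copies, so the assignment of their reads is uncertain. Metabolic lists changed little: glycolysis gave 1 higher and 1 lower call of 20, cholesterol synthesis 0 of 20, and amino acid and one-carbon genes 1 higher of 19. Pdk1, which keeps pyruvate out of mitochondria, was the lower glycolysis gene (17.5 ± 4.13 against 72 ± 33.2 CPM, -2.04 ± 0.40, adjusted p = 0.00805, and 0.0628 without CD127-PD-1+ replicate 2). The 1 respiratory chain gene called, Uqcrc1, was at 18.7 and 552 CPM against 19.7, 17 and 18.4 CPM, and its call ended without CD127-PD-1+ replicate 2 (adjusted p = 0.97) and without CD127+PD-1- replicate 2 (0.0553), with limma-voom (0.199) and with the title number as a block (0.0505).

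Interferon-stimulated genes gave 13 higher calls of 30 and 0 lower ones, with a median log2 fold change of 0.43. Oas2, an antiviral sensor of double-stranded RNA, was at 66.3 and 58.4 CPM against 13, 16 and 11.6 CPM (2.20 ± 0.37, adjusted p = 0.00377). Rtp4, an interferon-induced chaperone, was at 25.2 and 23.8 CPM against 8.87, 11 and 10.5 CPM (1.27 ± 0.22, adjusted p = 0.00462). For these 2 genes the groups were apart and the call held whichever library was left out. Oas1a (1.51 ± 0.28, adjusted p = 0.00704) and Ifit3 (1.47 ± 0.29, adjusted p = 0.00805) were called too, but not without CD127-PD-1+ replicate 1 (0.0595 and 0.053). The count was 4 without CD127-PD-1+ replicate 1, 6 without CD127+PD-1- replicate 1, 6 without CD127+PD-1- replicate 2 and 7 without CD127+PD-1- replicate 3. Of the 30 genes, 24 were higher in CD127-PD-1+ replicate 1 than in replicate 2, beside 760 of all 1115 genes called higher. The macrophage sum had this order too, and macrophages express these genes as well.

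The interferon response element (ISRE) was searched on both strands as GAAA, any 2 bases and GAAA again. Since 25 of the 30 genes had a positive log2 fold change, 2 promoters of called genes are shown, with the ISRE letters on either strand in capitals (RefSeq, GRCm38.p6, 5′ to 3′ on the gene's strand):
Ifit3 promoter, chr19:34583279-34583578, plus strand: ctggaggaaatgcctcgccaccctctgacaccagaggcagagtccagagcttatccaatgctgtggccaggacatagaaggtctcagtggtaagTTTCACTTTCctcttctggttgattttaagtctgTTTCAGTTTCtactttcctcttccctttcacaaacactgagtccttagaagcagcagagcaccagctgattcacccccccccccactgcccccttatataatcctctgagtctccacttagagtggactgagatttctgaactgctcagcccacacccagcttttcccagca
Oas1a promoter, chr5:120907476-120907775, minus strand: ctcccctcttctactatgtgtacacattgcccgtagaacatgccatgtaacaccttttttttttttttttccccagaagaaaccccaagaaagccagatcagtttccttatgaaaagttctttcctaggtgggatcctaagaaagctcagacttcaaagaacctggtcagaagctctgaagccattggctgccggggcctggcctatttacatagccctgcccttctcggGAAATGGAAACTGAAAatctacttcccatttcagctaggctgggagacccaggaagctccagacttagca
Promoters were found for 19 of the 30 genes, and 11 of them (57.9%) held the motif against 3.49% of all promoters of this length. It was in 6 of the 9 promoters of genes called higher and in 5 of the 10 of genes not called.

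Chemokine ligands were higher in CD127-PD-1+ cells, in 10 of 13 genes tested, with 0 lower and a median of 2.77. Ccl3, made by activated T cells and macrophages, was at 127.3 and 72.5 CPM against 17.4, 13.4 and 13.1 CPM (2.77 ± 0.33, adjusted p = 0.000549). Cxcl16, the membrane-bound ligand of CXCR6, was at 167 and 83.8 CPM against 8.45, 6.6 and 4.93 CPM (4.23 ± 0.47, adjusted p = 0.000365). Ccl12, a monocyte attractant, was at 29.5 and 18.5 CPM against 0.414, 0 and 0.186 CPM. The groups were far apart. In 10 of the 13 genes replicate 1 of CD127-PD-1+ was above replicate 2, beside 760 of all 1115 genes called higher. The macrophage sum had this order too. The count was 6 without CD127-PD-1+ replicate 1 and 6 without CD127+PD-1- replicate 2.

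Of 21 chemokine receptors and integrins of inflamed tissue, 6 were called higher and 1 lower. Of the 6, 3 kept the call in each fit with 1 library left out (Cx3cr1, Itgb1 and Itgam). The lower call, Ccr3, was lost without CD127-PD-1+ replicate 1 (adjusted p = 0.217), without CD127+PD-1- replicates 1, 2 and 3 (0.086, 0.063 and 0.106) and in the CD4 libraries alone (0.0559). Itgb1, the integrin beta 1 chain, was at 731 and 760 CPM against 314, 285 and 462 CPM (1.08 ± 0.22, adjusted p = 0.00896), in about equal amount in both CD127-PD-1+ libraries. Cx3cr1, the fractalkine receptor of monocytes and effector T cells, was at 95.8 and 52.8 CPM against 3.07, 2.92 and 2.33 CPM (4.73 ± 0.41, adjusted p = 0.000122). Ccr2 (-0.09 ± 0.30, adjusted p = 0.9) and Cxcr6 (0.45 ± 0.30, adjusted p = 0.385), receptors of T cells in inflamed tissue, were not called.

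The largest changes outside the lists of other cell types were chosen by size among genes at an average of at least 4 on the log2 CPM scale whose groups did not overlap. The 10 largest increases had log2 fold changes from 4.68 to 6.76 and were Itga9, Lilra5, Mmp13, Abca9, Klra2, Hpgd, Mmp12, Stab1, Cx3cr1 and Adap2. Several are known from macrophages, such as the macrophage elastase Mmp12 (116 and 41.4 CPM against 4.31, 2.23 and 0.558 CPM) and the scavenger receptor Stab1 (93.7 and 63.5 CPM against 1.41, 0.998 and 5.4 CPM). All 10 were higher in CD127-PD-1+ replicate 1 than in replicate 2, as were the macrophage sum and 760 of all 1115 genes called higher. MHC class II genes showed the same order in all 10 members tested, with 5 called higher, and none of the 5 calls held without CD127-PD-1+ replicate 1, CD127+PD-1- replicate 2 or CD127+PD-1- replicate 3.

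The 10 largest decreases ran from -2.94 to -4.17 and were Il7r, Tdrp, Igfbp4, Fam101b, Cd8b1, Rpgrip1, Chdh, Actn1, Bcl11a and St8sia6. The value of -4.17 is that of Il7r, which the gate fixed and which is no finding. Igfbp4, which binds insulin-like growth factors, was at 6.05 and 4.48 CPM against 58, 102 and 43.3 CPM (-3.69 ± 0.41, adjusted p = 0.000365). Actn1, an actin crosslinker, was at 8.41 and 8.44 CPM against 72.9, 95 and 47.8 CPM (-3.09 ± 0.30, adjusted p = 0.000172). Tdrp was at 3.97 and 0.779 CPM against 33.3, 53.6 and 30.1 CPM (-4.04 ± 0.56, adjusted p = 0.00118). Bcl11a, a factor of plasmacytoid dendritic cells and B cells, was at 16.1 and 3.5 CPM against 120, 52.8 and 59.1 CPM (-2.98 ± 0.60, adjusted p = 0.00889). Its order of libraries within each group was that of Siglech. Cd8b1 had the same order too, and the part of plasmacytoid dendritic cells in either change was not tested. St8sia6, a sialyltransferase, lost its call without CD127-PD-1+ replicate 2 (0.104), CD127+PD-1- replicate 1 (0.0598) or replicate 2 (0.077).

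The most abundant called genes included 3 of the cytoskeleton and of splicing. Lcp1, the actin bundler L-plastin, was at 1364 and 1409 CPM against 789, 703 and 959 CPM (0.76 ± 0.16, adjusted p = 0.0114, and 0.0562 without CD127-PD-1+ replicate 2). Clk1, a splicing kinase, was at 1146 and 1057 CPM against 1782, 1689 and 1682 CPM (-0.64 ± 0.12, adjusted p = 0.00623). Macf1, a crosslinker of actin and microtubules, was at 2038 and 1848 CPM against 2984, 2636 and 2828 CPM (-0.54 ± 0.11, adjusted p = 0.00929, and 0.0734 without CD127-PD-1+ replicate 2). The groups did not overlap in any of the 3.

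The same 2 states sorted from CD8 cells allowed a test of whether the CD4 change differed. In CD8 cells 1481 genes (9.05%) were called higher and 1074 (6.56%) lower in CD127-PD-1+. Genes called higher in both lineages numbered 744, which is 66.7% of the CD4 calls and 50.2% of the CD8 calls. Genes called lower in both numbered 534, or 67.0% and 49.7%. In the test of the difference itself (state by lineage), 1 gene (0.00611%) changed more positively in CD4 cells and 0 more negatively, with 393 and 504 genes at an unadjusted p under 0.05, and DESeq2 called 19 and 36.

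The gene called was Nt5e (chr9:88327197-88372092, plus strand), encoding the ectoenzyme CD73 that makes adenosine from the product of CD39. Among CD4 libraries it was at 62.3 and 69 CPM in the CD127-PD-1+ state and at 63.2, 63.6 and 86.1 CPM in the CD127+PD-1- state, with overlap. In CD8 cells it was at 19.8, 15.7 and 17.6 CPM in CD127-PD-1+ against 73.9, 83.2 and 63.8 CPM in CD127+PD-1-. The log2 fold change was -0.11 ± 0.17 in CD4 cells and -2.06 in CD8 cells, a difference of 1.94 ± 0.23 (adjusted p = 0.0406). It was not among the calls of this test without CD127-PD-1+ replicate 2, CD127+PD-1- replicate 1 or CD127+PD-1- replicate 2, nor with either replicate block.

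Other genes with different values in the 2 lineages did not pass that test. Il21 had a log2 fold change of 3.91 in CD4 and 1.68 in CD8 cells, where it stayed between 0.0733 and 1.12 CPM (difference 2.23 ± 0.83, adjusted p = 0.823). Cx3cr1 had 4.73 and 2.06 (difference 2.68 ± 0.52, adjusted p = 0.312), and Maf 1.39 and 2.51 (difference -1.12 ± 0.24, adjusted p = 0.354). Cd8b1 fell in CD4 cells and had -0.21 in CD8 cells (difference -3.05 ± 0.61, adjusted p = 0.313). Of the mitosis genes, 3 of 28 were called higher in CD8 cells (median 0.98) against 24 in CD4 cells (median 1.95), and the smallest adjusted p of the difference among the 28 was 0.864, so a difference between the lineages was not shown.

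**Figure D5:**
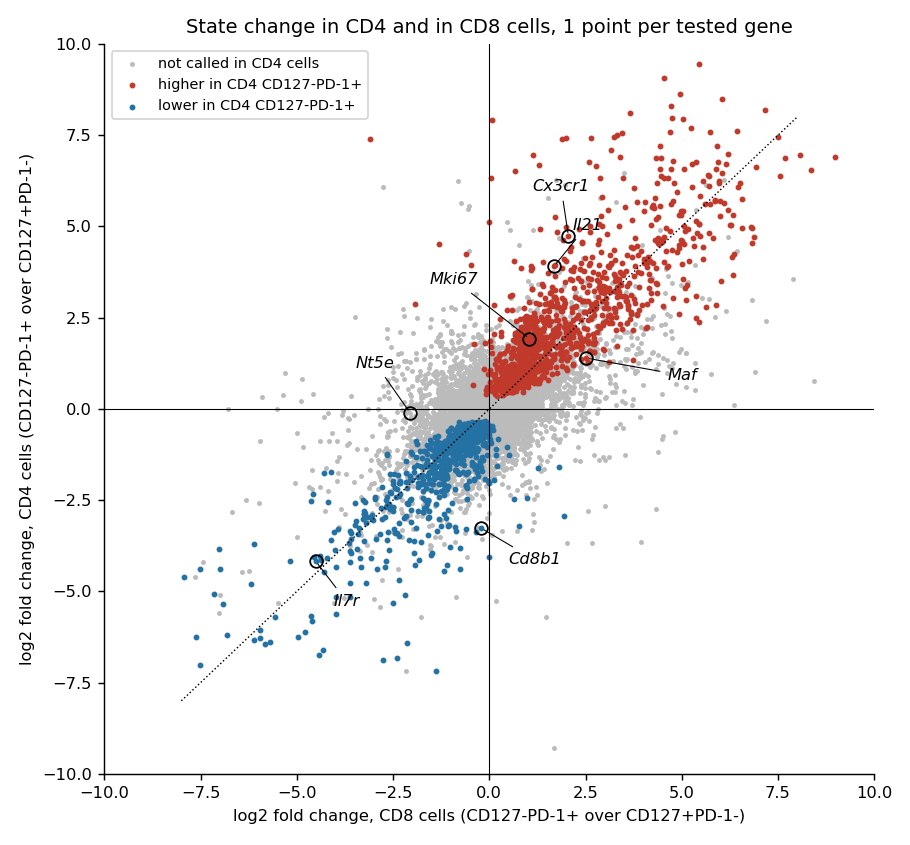
Log2 fold change of CD127-PD-1+ over CD127+PD-1- in CD4 cells (vertical axis) against CD8 cells (horizontal axis), with 1 point per tested gene, genes called in CD4 cells in red (1115 higher) or blue (797 lower), a dotted line of equal change, and 7 genes circled. Most called genes lie in the lower left or upper right corner, Nt5e lies near 0 in CD4 cells and at -2.06 in CD8 cells, and Cd8b1 lies low in CD4 cells alone.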

How the data were processed

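RNA from sorted kidney T cells was amplified from 2 ng by single primer isothermal amplification (SPIA) and sequenced as single reads of 75 bases, per the labels' protocols. The values are the authors' deposited raw counts per gene. STAR, featureCounts and the mouse build GRCm38 are named in the submitters' processing notes; their versions, the annotation and the strand setting were not given in the sources used here. Columns were matched to samples by the description label, and 1 further column that matched no sample was not used.

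Counts of all 11 libraries were fitted with edgeR 4.0.16 (R 4.3.3; filterByExpr, TMM, 4 group means, quasi-likelihood test, Benjamini-Hochberg adjustment over 16365 of 46078 genes, called at an adjusted p under 0.05). The depth was 10572505 to 14671212 counts per CD4 library. Without a CD127-PD-1+ library that group has 1 sample, which is then assumed to vary like the other groups. The labels call the replicates biological, and each is a pool of 3 mice.

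The comparison, the 48 gene lists and the naming rule were chosen with earlier results of these data known. Named were the sort markers, the 10 largest changes and 5 most abundant called genes per direction (average log2 CPM of at least 4 for the former, groups not overlapping, other-cell lists left out), the 4 called members with the smallest p of each list, the 6 smallest p per direction of the state by lineage test, and further list members as examples. Some genes that the rule selects are not reported here. Of 782 distinct listed genes, 754 were tested. Lists share members, so that a gene can be counted in several of them, as Klf2 is among naive factors, homing genes and quiescence genes. The replicate numbers in titles and in descriptions differ. Deviations from the group means correlated at -0.21 to 0.32 in the 15 pairs of libraries with the same title number. In the 12 pairs with the same description number they correlated at 0.00109 to 0.33, with none negative. The main fit was unpaired, and whether libraries with the same description number share a pool or a batch was not tested. Alternatives were relative log expression factors, DESeq2 1.42.0, limma-voom 3.58.1, no or a stricter filter, mitochondrial genes left out, a replicate block, the CD4 libraries alone and each CD4 library left out. The fitting script was tested on simulated data. Coordinates are from GENCODE M21 and promoters from RefSeq, both GRCm38.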

Additional observations from a re-analysis of the deposited data

Results flagged for a closer look

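The state change of Nt5e, which encodes the ectoenzyme CD73, differed between CD4 and CD8 cells by 1.94 on the log2 scale in a test of the difference itself. Among CD4 libraries its mean level was 65.7 ± 4.7 CPM in the CD127-PD-1+ state (SD, n = 2) and 71 ± 13.1 CPM in the CD127+PD-1- state (n = 3), with overlap. In CD8 cells it was 17.7 ± 2.06 CPM against 73.6 ± 9.7 CPM (n = 3 each), with all 3 CD127-PD-1+ libraries below all 3 others. The call was lost with a replicate block by either numbering, and when CD4 CD127-PD-1+ replicate 2, CD4 CD127+PD-1- replicate 1 or CD4 CD127+PD-1- replicate 2 was left out.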

How the results depend on the processing

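With each CD4 library left out in turn, the CD4 counts ranged from 554 to 804 genes higher and from 374 to 582 lower. Under the other alternatives they ranged from 953 to 1383 and from 572 to 1053. None of the 149 named genes called in CD4 cells reversed its direction under these alternatives; named genes that were not called were not counted. The state by lineage test made 0 to 2 calls higher and 0 to 1 lower with a library left out, 19 and 36 with DESeq2, and 27 and 58 with no filter; the cause was not tested. With a replicate block it called 0 higher by either numbering, and 0 (title) or 1 (description) lower, so the Nt5e call was lost with either block. The CD4 counts with the replicate block were 1156 and 849 (title) and 1280 and 884 (description). DNA replication calls were 18 with DESeq2, no filter or the title block and 17 with the description block, against 11. Ribosomal protein calls were 19 with no filter, 16 with the title block and 1 in the CD4 libraries alone, against 10. In the CD4 libraries alone, 4 CD8 lineage genes were lower (against 2) and 4 neutrophil and mast cell genes higher (against 2). With limma-voom, 1 gene of the latter list was higher, and 1 endothelium, podocyte and stroma gene lower (against 2). Of the 149, DESeq2 lost 0, limma-voom 12, the CD4 libraries alone 10, and leaving out 1 library 22 to 42. With 2 and 3 pools, a gene that was not called is not shown to be unchanged.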

Other observations

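Receptors for the Fc part of IgG and complement genes, which serve the uptake of immune complexes, were the list with the largest median change (4.67 on the log2 scale), with 14 of 17 genes called higher and 0 lower. In 16 of the 17 genes CD127-PD-1+ replicate 1 was above replicate 2, the order of the macrophage sum and of 760 of all 1115 genes called higher. The list shares members with the macrophage list, among them C1qa, C1qb, C1qc, C3ar1, Fcgr1, Fcgr3 and Itgam. Its calls are therefore in part the same calls and not a separate observation. Lysosome and phagosome genes gave 9 higher and 3 lower calls of 20. The 9 became 3 without CD127-PD-1+ replicate 1 and 5 without CD127+PD-1- replicate 2, and the 3 became 1 without either of these or CD127-PD-1+ replicate 2.

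Regulatory T cell genes gave 4 higher calls and 1 lower call of 20 (2 higher without CD127-PD-1+ replicate 1, CD127-PD-1+ replicate 2 or CD127+PD-1- replicate 2). Cytotoxic granule genes gave 4 higher and 3 lower of 19. Cst7, encoding the protease inhibitor cystatin F, rose from 5.8, 6.14 and 6.51 CPM to 11.8 and 12.1 CPM (log2 fold change 0.95, adjusted p = 0.0101). Prf1, encoding perforin, fell from 6.22, 6.6 and 2.88 CPM to 1.61 and 0.973 CPM (-2.02, adjusted p = 0.0077, and 0.0617 without CD127-PD-1+ replicate 2). The granule counts became 2 higher without CD127-PD-1+ replicate 1 or CD127+PD-1- replicate 2, and 0 lower without CD127-PD-1+ replicate 2. Of the GIMAP GTPases, which support lymphocyte survival, 1 of 8 was called, namely Gimap6, at 235 and 196 CPM against 495, 540 and 394 CPM (-1.14, adjusted p = 0.000967).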
